A study of Mus musculus with 6 samples.

Results

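The genes compared here are 96 developmental transcription factors outside the *Hox* clusters, a set of genes that in many cell types are typical targets of the Polycomb proteins. They were chosen by name, as every gene whose symbol is *Pax*, *Lhx*, *Dlx*, *Irx*, *Gata*, *Tbx*, *Zic*, *Emx*, *Otx*, *Msx*, *Barx*, *Barhl*, *Gbx*, *Pitx*, *Meis* or *Pbx* followed by a number, *Nkx* with its pair of numbers, or the numbered symbol of a sine oculis homeobox gene (such as *Six3*). All 96 were on the array, out of 22911 genes that the probes' RefSeq accessions named, and they fell into 18 families. RNA was measured in OS3 cells, an immortalized glial line from the brain of a male C3H mouse (newborn C3H/HeN mice per the study's methods) that carries SV40. WT cells carried the empty vector, and IG27 cells carried a pcDNA3.1(+) plasmid that encodes histone *H3f3a* with the K27M change (H3.3K27M). Both were grown for 2 days in the same medium, 3 dishes of each were harvested, and each RNA was hybridized to 1 single-color Agilent array of the same slide. Clones were established by drug selection after transfection, the labels name 1 line of each kind, and line and plasmid therefore cannot be told apart.

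These proteins bind DNA through a homeodomain, a paired domain, a T-box, GATA zinc fingers or the zinc fingers of the Zic family, and they set the identity of regions and cell types in the embryo. In cells that do not use them, many of their genes carry trimethylation of lysine 27 of histone H3 (H3K27me3), which Polycomb repressive complex 2 writes and which H3.3K27M reduces in the cells that make it. Chromatin was not measured in these samples, so the values below are RNA levels only.

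The promoters of the members differ in how many CG dinucleotides they hold, a feature linked to Polycomb binding in mammals, and 4 of them are shown because their genes had the contrasting RNA results described below. *Six3* fell below background and *Lhx4* rose above it in IG27 cells, while *Nkx3-2* was the called member with the second largest fall and *Zic5* with the second largest rise among those measured in both lines. Each sequence is the 250 bases before the RefSeq gene start, 5′ to 3′ on the strand of the gene in GRCm38.p6, with every CG in capitals.
*Six3*, chr17:85620584-85620833, plus strand: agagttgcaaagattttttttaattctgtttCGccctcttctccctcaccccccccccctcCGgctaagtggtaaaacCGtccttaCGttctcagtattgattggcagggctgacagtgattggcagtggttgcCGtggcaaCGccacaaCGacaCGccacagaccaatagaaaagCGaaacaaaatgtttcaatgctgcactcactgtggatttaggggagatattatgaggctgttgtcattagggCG
*Lhx4*, chr1:155742028-155742277, minus strand: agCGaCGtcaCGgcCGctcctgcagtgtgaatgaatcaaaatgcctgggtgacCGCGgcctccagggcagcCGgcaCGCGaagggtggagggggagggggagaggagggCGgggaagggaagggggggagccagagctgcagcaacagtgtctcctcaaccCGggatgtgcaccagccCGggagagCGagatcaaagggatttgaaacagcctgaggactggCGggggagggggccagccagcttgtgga
*Nkx3-2*, chr5:41764221-41764470, minus strand: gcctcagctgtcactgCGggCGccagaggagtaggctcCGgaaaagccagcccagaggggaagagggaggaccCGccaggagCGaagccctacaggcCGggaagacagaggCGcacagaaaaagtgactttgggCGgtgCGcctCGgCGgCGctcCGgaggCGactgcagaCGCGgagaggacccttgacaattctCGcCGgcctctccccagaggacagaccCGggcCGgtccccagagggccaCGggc
*Zic5*, chr14:122465659-122465908, minus strand: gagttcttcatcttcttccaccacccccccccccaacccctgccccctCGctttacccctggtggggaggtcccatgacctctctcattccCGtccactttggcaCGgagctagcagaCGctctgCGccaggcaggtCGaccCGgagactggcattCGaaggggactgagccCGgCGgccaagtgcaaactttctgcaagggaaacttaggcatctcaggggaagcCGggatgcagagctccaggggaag
The stretch of *Six3* held 10 CG dinucleotides at a GC content of 48.8%, and that of *Lhx4* held 14 at 66.0%. The stretch of *Nkx3-2* held 21 at 68.8%, and that of *Zic5* held 11 at 62.4%. The pair of genes that rose lay between the pair that fell in the number of CG dinucleotides. For 4 genes picked by their RNA results, this order is a description only.

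Of the 96 members, 67 had a promoter in the RefSeq table, in 83 windows of 300 bases (250 before and 50 after the start). The median ratio of observed to expected CG was 0.713 in the members' windows, 0.734 in those of the members tested, 0.714 in the windows of all genes tested and 0.384 in all windows of the table. A GC content of at least 50% with a ratio of at least 0.6 was found in 62.7% of the members' windows, in 69.0% of those of the members tested, in 59.3% of those of all genes tested and in 33.5% of all windows. The homeodomain core TAATTA, which reads the same on both strands, was in 7 windows of the members (8.43%; 7.14% of those of the members tested), in 3.01% of those of all genes tested and in 5.29% of all windows. The GATA motif AGATAA, searched on both strands, was in 11 windows of the members (13.3%), which were 7.14% of the windows of the members tested and 19.5% of those of the others, in 6.90% of those of all genes tested and in 11.2% of all windows. These motif counts are a description of the windows and say nothing of binding.

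Levels are given as normalized log2 intensity, log2 values of the processed signal from which each array's 75th percentile was taken off, so a level of 0 is that of the probe at this percentile. The level of 1 probe cannot be set against that of another. The scanner software marks each spot that is well above background, and the lowest level of such a probe was -6.01 to -5.53 on the WT arrays and -5.37 and -5.33 on the complete IG27 arrays. Each of the 5 complete arrays had 58.8% to 61.2% of its 56605 probes well above background and no saturated spot. The scanner output of IG27 replicate 2 holds 285 of 62976 spots, so its levels came from the deposited value table and it carries no background mark. The labeled cell type was checked with marker genes. The glial and progenitor genes *Gfap*, *Sox10*, *Olig1*, *Nes*, *Sox2* and *Vim* were well above background on all complete arrays, while *Slc1a3* and *Fabp7* were so in IG27 cells only and the astrocyte gene *Gja1* on 1 of these arrays. Markers of other cell types were mixed. *Rbfox3*, *Syt1* and *Dcx* of neurons, *Cx3cr1* and *Ptprc* of microglia, *Cdh5*, *Cldn5* and *Tek* of endothelium and *Lum* of fibroblasts were above background on no array, but *Tubb3* and *Snap25* of neurons, *Csf1r*, *Itgam* and *Tmem119* of microglia, *Pecam1* of endothelium and *Col1a1* and *Pdgfrb* of fibroblasts and mural cells were so on all complete arrays. The endothelial gene *Kdr* was at least 135-fold higher in IG27 cells and above background on no WT array, and the neuronal gene *Map2* was so on both complete IG27 arrays and 1 WT array. Markers were called in both directions, where 30.5% of all genes tested were called higher and 40.0% lower in IG27 cells. Of 6 astrocyte markers tested, 2 were called higher and 3 lower. The numbers were 4 and 2 of 8 oligodendrocyte lineage markers and 1 and 2 of 4 progenitor markers. They were 1 and 1 of 3 neuronal markers and 2 and 2 of 4 microglial markers. Those of the rest were 1 and 1 of 2 endothelial markers and 1 and 2 of 3 fibroblast and mural markers. These lists are short and were not tested as sets. The summed level of the astrocyte markers was 6.58 to 6.72 in WT and 5.78 to 5.99 in IG27 cells, that of the oligodendrocyte lineage markers 6.21 to 6.25 and 6.23 to 6.27, and that of the fibroblast and mural markers 6.98 to 7.01 and 6.01 to 6.12. That of the progenitor markers was 7.60 to 7.67 and 7.31 to 7.46, that of the neuronal markers 4.13 to 4.31 and 3.32 to 3.46, that of the microglial markers 3.84 to 3.94 and 3.77 to 3.81, and that of the endothelial markers -2.54 to -2.36 and 1.38 to 1.42. Each sum is carried mostly by its brightest genes and does not describe the list as a whole. In the astrocyte sum this is *Gfap*, 1 of the 3 that fell, by 1.07 on the log2 scale. The 2 that rose were *S100b*, by 4.93, and *Slc1a3*, at least 20.6-fold. The part of the markers in the members' results was not tested.

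As many members could not be tested as could. No probe of 39 members was well above background on any complete array. A further 9 were so on some arrays but not on every array of either line, which leaves 48 members tested. The genes below background throughout included *Pax6*, *Emx1*, *Emx2* and *Otx1* of the forebrain, *Nkx2-1* and *Nkx2-2* of the ventral neural tube, the neural crest gene *Pax3*, and the muscle gene *Pax7*. No member of the *Emx* or *Otx* family was tested, and 11 of 14 *Nkx*, 9 of 13 *Tbx* and 6 of 9 *Pax* genes were not. By contrast, every *Meis* and *Gbx* gene was well above background in both lines. Of the 48 tested members, 41 were so on all complete arrays of both lines, where 13544 of all 14898 genes tested were. Another 4 members were so on every array of 1 line and on some of the other, and 3 in 1 line only. The share of all genes in 1 line only is not given here. The 48 members that were not tested had levels from -8.35 to -4.55, and their median measured difference, 0.28, lay beside the 0.30 of all 8013 genes that were not tested. Differences among such values have no order.

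**Figure D1:**
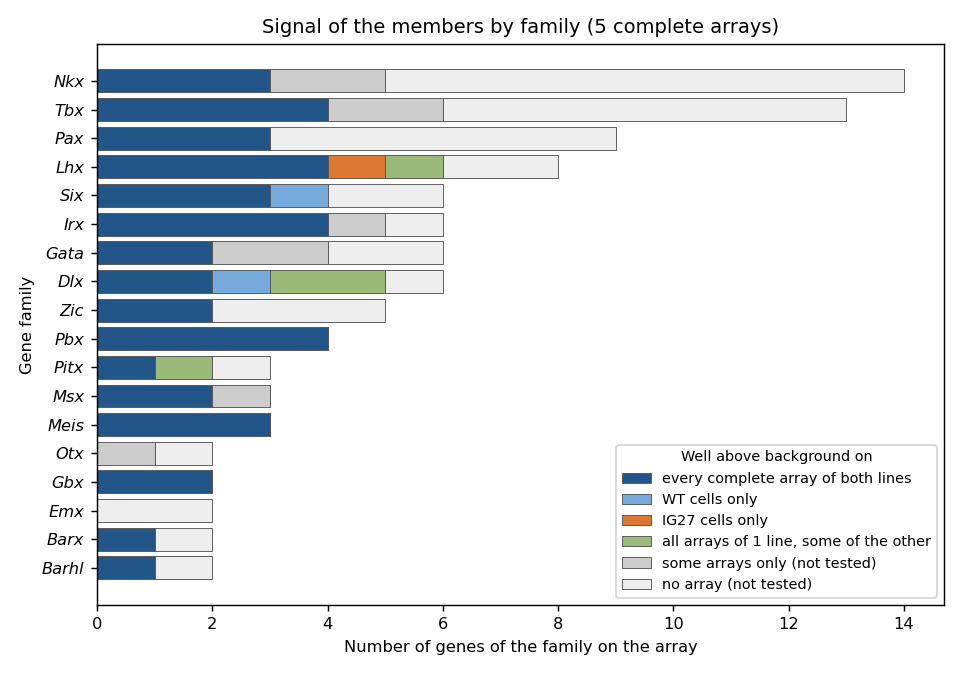
Number of members of each gene family on the array, colored by where their probes were well above background on the 5 complete arrays (3 WT, 2 IG27). *Meis* and *Gbx* are filled by genes measured in both lines, while *Emx* and *Otx* hold no tested gene and *Nkx*, *Tbx* and *Pax* hold mostly genes that were above background on no array.

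The comparison of IG27 with WT cells asks which of these genes differ where H3.3K27M is expressed. Of the 48 members tested, 33 (68.8%) passed the two-sided limma test at a threshold of 0.05, with Benjamini-Hochberg adjustment over all 14898 genes tested, against 70.5% of all genes. At an unadjusted limma p of at most 0.05 the count was 34 (70.8%), against 72.9%. The members were thus called about as often as the genes at large. These are RNA levels of whole dishes, in which fewer cells that use a gene and less of its RNA per cell cannot be told apart. Of them, 19 (39.6%) were higher in IG27 cells, against 30.5% of all genes, and 14 (29.2%) were lower, against 40.0%. With the median in place of the 75th percentile for scaling, 16 were higher and 19 lower, so the split between directions depends on how the arrays are scaled. This scaling shifts the differences of all genes alike. The shares of all genes called in each direction with it are not given here. The median log2 difference of the tested members was 0.07 with the 75th percentile and -0.17 with the median, beside -0.07 and -0.31 for all genes tested. A called difference of at least 2-fold was found in 10 members (20.8%) in each direction, against 11.5% of all genes higher and 11.7% lower. The count of rises depends on the background correction. With normexp correction *Lhx4*, *Zic5*, *Msx3*, *Nkx1-1* and *Dlx4* came under 2-fold (1.56, 1.63, 1.67, 1.95 and 1.39). *Lhx2* (6.69) and *Pax9* (2.52) did not. The share of all genes with that correction is not given here. The 3 arrays of the lines did not overlap in 34 of the 48 members (70.8%), against 75.7% of all genes.

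The calls were also counted by level, with no test of a difference between levels. Among 12 tested members with a mean level under -4, 5 were called higher and 1 lower, where 37.3% and 23.6% of all genes at that level were called higher and lower. Among 11 members from -4 to -2, 5 were higher and 3 lower, against 36.1% and 28.6% of all genes. From -2 to 0 the numbers were 3 and 7 of 14, against 34.3% and 40.0%, and above 0 they were 6 and 3 of 11, against 26.9% and 46.0%. The standard error moved with the level too, with a median of 0.25 among the members under -4 and of 0.06 among those above 0.

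**Figure D2:**
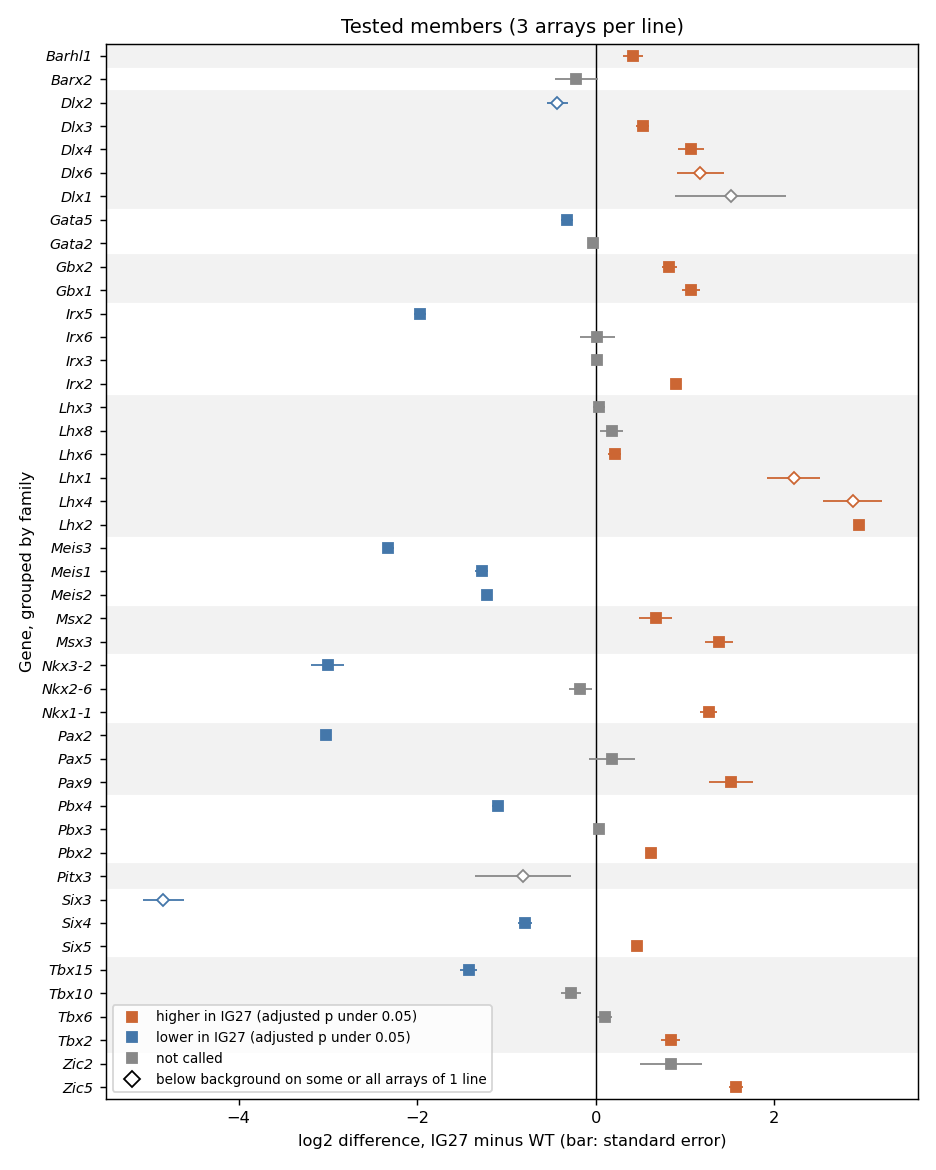
Log2 difference (IG27 minus WT) of 45 of the 48 tested members, grouped by family, with its standard error (3 arrays per line). Orange marks called rises, blue called falls and gray genes that were not called; open diamonds mark the 7 genes that were below background on some or all complete arrays of 1 line. All 3 *Meis* genes lie left of 0, both *Gbx* and both *Msx* genes lie right of it, and *Six3* at -4.84 is the lowest point.

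In 3 members the signal was well above background in 1 line only. They were picked by that difference. The gap between the lines and the adjusted p-values below thus follow in part from the choice and are no separate support. *Six3*, a homeodomain factor of the forebrain and eye, was the clearest of them. Its levels were -1.56, -0.95 and -1.78 in WT replicates 1 to 3 and -6.10, -6.52 and -6.20 in IG27 replicates 1 to 3. All WT arrays were high, and neither complete IG27 array was above background. *Six3* was at least 15.1-fold lower in IG27 cells when the WT mean was set against the lowest level that counts as well above background on the 2 complete IG27 arrays, and the fitted log2 difference was -4.84 (standard error 0.23, adjusted p = 6.62e-06 from limma). This fold holds for the processed signal, and normexp background correction gave a log2 difference of -2.33 (adjusted p = 1.45e-04 from limma). *Lhx4*, a LIM-homeodomain factor of the pituitary and of motor neurons, went the other way. Its levels were -6.84, -7.70 and -8.17 in WT and -4.55, -4.80 and -4.74 in IG27 cells. No WT array was above background, and the IG27 arrays were close to each other, above the limit. *Lhx4* was at least 2.11-fold higher in IG27 cells, with a fitted log2 difference of 2.88 (standard error 0.32, limma adjusted p = 3.21e-04) and of 0.64 with normexp (adjusted p = 4.88e-04 from limma).

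The third gene, *Dlx2*, a factor of the ventral forebrain and its interneurons, lay close to the limit in both lines. Its levels were -5.11, -5.09 and -5.43 in WT and -5.71, -5.73 and -5.48 in IG27 cells. The highest IG27 array and the lowest WT array almost touched. *Dlx2* was at least 1.10-fold lower in IG27 cells, with a log2 difference of -0.43 (standard error 0.12, adjusted p = 0.0163 from limma), and 6 of 16 alternative settings did not call it. Allowing 1 complete array of the other line above background added *Dlx1*, *Lhx1* and *Pitx3* to these genes. *Lhx1*, a LIM-homeodomain factor of the kidney and the head organizer, had levels of -6.38, -5.27 and -5.36 in WT and -3.40, -3.54 and -3.43 in IG27 cells. Only 1 of 3 WT arrays was above background, and the lines did not overlap. Its log2 difference was 2.22 (standard error 0.29, adjusted p = 6.73e-04 from limma). *Lhx1* passed the filter on dim probes only through the IG27 arrays, so these values too follow in part from the choice and are no separate support.

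**Figure D3:**
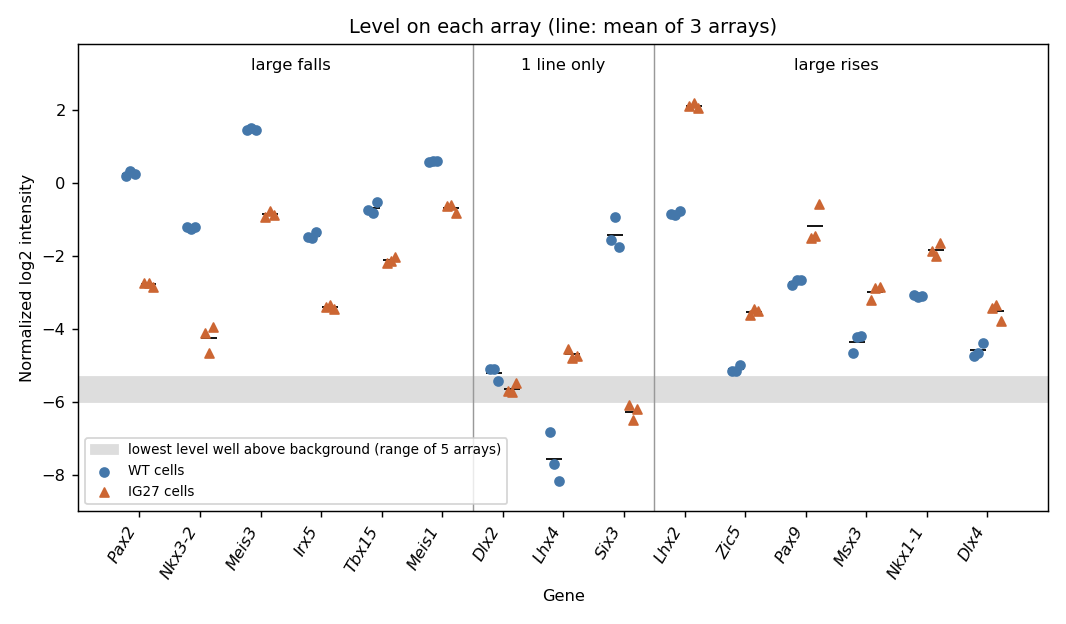
Normalized log2 intensity on each of the 3 WT (blue circles) and 3 IG27 arrays (orange triangles) of 6 members with large falls, the 3 that were well above background in 1 line only, and 6 with large rises. The short lines are means and the gray band is the range, over 5 complete arrays, of the lowest level well above background; *Six3* drops from between -1.78 and -0.95 to below the band and *Lhx4* rises from below the band.

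Of 6 LIM-homeodomain (*Lhx*) genes tested, 4 were called higher, none lower and 2 were not called, against 30.5% of all genes called higher. Among those called, *Lhx1* and *Lhx4* passed the filter on dim probes only through the IG27 arrays, so their rises follow in part from that filter. *Lhx6* was not called in 9 of 16 alternatives, median scaling among them. The counts thus do not show a direction of the family. *Lhx2*, which acts in the forebrain, the eye and hair follicle stem cells, had the largest rise of the members measured in both lines. Its levels were -0.85, -0.88 and -0.79 in WT and 2.10, 2.18 and 2.04 in IG27 cells. The arrays of each line lay close to each other and far from those of the other line. *Lhx2* was 7.73-fold higher in IG27 cells, a log2 difference of 2.95 (standard error 0.06, limma adjusted p = 2.10e-07). *Lhx6*, a factor of cortical interneurons, had a log2 difference of 0.21 (adjusted p = 0.0305 from limma). The motor neuron and pituitary factor *Lhx3* was not called, with a log2 difference of 0.04 and a 95% interval of -0.12 to 0.20. Its dimmer probe gave 0.37 (adjusted p = 0.0102 in the limma fit of all probes). The mean of both probes called the gene higher, but median scaling called it lower. *Lhx8*, of cholinergic forebrain neurons, was not called either, at 0.18 with an interval of -0.14 to 0.49. *Lhx5* and *Lhx9* were above background on no array.

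The paired-box genes had changes in both directions, with 1 of 3 tested called higher, 1 lower and 1 not called. *Pax2*, a factor of the kidney, the optic stalk and the boundary of midbrain and hindbrain, had the largest fall of the members measured in both lines. Its levels were 0.17, 0.31 and 0.24 in WT and -2.75, -2.74 and -2.85 in IG27 cells. Neither line had an array near the other. The log2 difference was -3.02 (standard error 0.06, adjusted p = 2.44e-07 from limma), 8.12-fold, and it rests on 1 of 3 probes, as the other 2 were above background on no array. *Pax9*, a factor of teeth, palate and thymus, rose. Its levels were -2.80, -2.66 and -2.67 in WT and -1.52, -1.47 and -0.60 in IG27 cells. IG27 replicate 3 stood above the other IG27 arrays, and all 3 were above the WT arrays. The log2 difference was 1.52 (standard error 0.25, adjusted p = 0.00188 from limma). *Pax5*, a factor of B cells and the midbrain, was not called, with a log2 difference of 0.18 and a 95% interval of -0.44 to 0.80. The other 6 *Pax* genes were above background on no array.

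The *Meis* genes encode TALE homeodomain proteins, which bind DNA as partners of Hox and other homeodomain proteins. All 3 *Meis* genes fell, against 40.0% of all genes tested, and each kept its call in all 16 alternative settings, the scalings included. *Meis3* had levels of 1.44, 1.49 and 1.44 in WT and -0.94, -0.77 and -0.90 in IG27 cells. The gap between the lines was far larger than the range within either of them. The log2 difference came to -2.32 (standard error 0.06, adjusted p = 6.22e-07 from limma), and its other probes gave -2.35 and -2.48. *Meis1*, a factor of blood stem cells and limbs, had levels of 0.57, 0.58 and 0.60 in WT and -0.63, -0.61 and -0.84 in IG27 cells. Every IG27 array was below every WT array, with a log2 difference of -1.28 (standard error 0.07, adjusted p = 1.51e-05 from limma), and its dimmer probe gave -1.10. *Meis2* had one of -1.22 (adjusted p = 4.01e-06 from limma), and its second probe gave -1.24.

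The *Pbx* genes, partners of the Meis proteins, did not share a direction. *Pbx4* fell by 1.10 on the log2 scale (adjusted p = 1.52e-05 from limma) and *Pbx2* rose by 0.62 (adjusted p = 9.26e-05 from limma). The second probe of *Pbx2* gave 0.30. *Pbx3* was not called, at 0.04 with a 95% interval of -0.10 to 0.18, but its second probe gave 0.22 (adjusted p = 0.00711 in the limma fit of all probes), and the gene was called in 3 alternative settings, quantile normalization among them.

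The sine oculis homeobox genes, which act in eye, ear and muscle precursors with the Eya proteins as partners, differed in direction. After *Six3*, *Six4* fell by 0.79 on the log2 scale (adjusted p = 2.07e-04 from limma). *Six5* rose by 0.46 (adjusted p = 1.70e-04 from limma). *Six2* and *Six6* were above background on no array.

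Among the *Nkx* genes tested, the largest change was a fall. *Nkx3-2*, a factor of the vertebral cartilage and the spleen, had levels of -1.22, -1.28 and -1.22 in WT and -4.11, -4.67 and -3.95 in IG27 cells. The WT arrays were close together, and every IG27 array was lower. The mean log2 difference of the lines was -3.00 (standard error 0.18, adjusted p = 1.96e-05 from limma), and its CG-rich promoter is among those shown above. *Pitx3*, of the lens and midbrain dopamine neurons, had levels of -4.58, -2.84 and -4.78 in WT, where replicate 2 stood high, and was not called (-0.81, 95% interval -2.14 to 0.51).

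*Nkx1-1* was the only 1 of 3 *Nkx* genes tested that rose. Its levels were -3.08, -3.13 and -3.11 in WT and -1.87, -2.02 and -1.65 in IG27 cells. The lines did not overlap. Its log2 difference was 1.27 (standard error 0.10, adjusted p = 5.53e-05 from limma). *Nkx2-6*, of the pharynx and heart, was not called, at -0.17 with a 95% interval of -0.48 to 0.13.

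Both *Msx* genes and both *Gbx* genes tested were called higher in IG27 cells, as was *Barhl1*, where 30.5% of all genes tested were. *Msx3*, of the dorsal neural tube, had levels of -4.68, -4.22 and -4.20 in WT and -3.21, -2.89 and -2.86 in IG27 cells. Replicate 1 was the lowest array of both lines, and every IG27 array was above every WT array. The log2 difference came to 1.38 (standard error 0.16, adjusted p = 3.69e-04 from limma), and *Msx2*, of skull and limb, rose by 0.67 (adjusted p = 0.0172 from limma), a call lost in 8 of 16 settings, both other scalings included. *Gbx1* rose by 1.07 (adjusted p = 1.19e-04 from limma) and *Gbx2*, which positions the boundary of midbrain and hindbrain, by 0.83 (adjusted p = 1.56e-04 from limma). *Barhl1*, of the inner ear and cerebellum, rose by 0.42 (adjusted p = 0.0158 from limma), a call lost in 4 settings, median scaling among them. *Barx2* was not called, at -0.22 with a 95% interval of -0.81 to 0.38.

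Of 5 *Dlx* genes tested, 3 were called higher and *Dlx2* lower. *Dlx4* had levels of -4.74, -4.67 and -4.38 in WT and -3.44, -3.35 and -3.78 in IG27 cells. The arrays of both lines were dim but did not overlap. The fitted log2 difference was 1.07 (standard error 0.14, adjusted p = 7.36e-04 from limma). *Dlx6*, of the jaw and limb, rose by 1.17 (adjusted p = 0.00709 from limma) with 1 WT array below background, and *Dlx3*, of skin, hair and teeth, rose by 0.53 (adjusted p = 9.30e-04 from limma). *Dlx1* had a larger difference, 1.51, with a wide 95% interval of -0.0032 to 3.03, and was not called (adjusted p = 0.0690 from limma); its IG27 levels were -4.91, -5.30 and -3.31, with replicate 3 high.

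The *Zic* genes encode zinc finger proteins of the neural crest and dorsal neural tube. *Zic5* had levels of -5.16, -5.17 and -4.99 in WT and -3.63, -3.45 and -3.52 in IG27 cells. It stood just above the limit in WT cells and clearly higher on every IG27 array. The mean log2 difference of the lines was 1.57 (standard error 0.08, adjusted p = 7.44e-06 from limma). *Zic2*, the gene of a human forebrain malformation, had levels of -1.32, -1.41 and -1.13 in WT and -0.54, -1.10 and 0.32 in IG27 cells. The lines did not overlap, but IG27 replicate 2 nearly met the WT arrays and replicate 3 stood well above the others. *Zic2* was not called (0.85, adjusted p = 0.0695 from limma), though its dimmer probe, at 0.69, had an adjusted p of 0.0296 in the limma fit of all probes. *Zic1* and *Zic4* were above background on no array. IG27 replicate 3 was also the highest IG27 array in *Pax9* and *Dlx1*.

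The *Irx* genes, which pattern heart, limb and neural tube, split as well. *Irx5*, of the retina and heart, had levels of -1.49, -1.52 and -1.34 in WT and -3.42, -3.36 and -3.47 in IG27 cells. The lines were well apart. Its log2 difference was -1.96 (standard error 0.07, adjusted p = 1.67e-06 from limma). *Irx2* rose by 0.90 (adjusted p = 1.08e-05 from limma). *Irx3* and *Irx6* were not called, both at 0.02, with 95% intervals of -0.10 to 0.14 and -0.46 to 0.49.

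Of the T-box genes, 1 of 4 tested rose, 1 fell and 2 were not called. *Tbx15*, a factor of the skeleton and of fat cells, had levels of -0.74, -0.84 and -0.52 in WT and -2.20, -2.14 and -2.03 in IG27 cells. No arrays of the lines overlapped. The log2 difference came to -1.42 (standard error 0.09, adjusted p = 2.78e-05 from limma). *Tbx2*, a repressor in heart and limb, rose by 0.84 (adjusted p = 5.69e-04 from limma). *Tbx6*, of the paraxial mesoderm, had a difference of 0.10 with a 95% interval of -0.09 to 0.29, and *Tbx10* one of -0.28 (adjusted p = 0.0569 from limma). Of the GATA genes, the heart and gut factor *Gata5* fell by 0.32 (adjusted p = 0.00393 from limma), a call that was lost in both settings that leave WT replicate 2 as the only WT array, and the blood stem cell factor *Gata2* was not called, at -0.03 with a 95% interval of -0.16 to 0.10.

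Of the 15 tested members that were not called, 9 had a 95% interval within 0.5 of 0 on either side, and the other 6 had intervals that reach further. These intervals hold for the brightest probe and the 75th percentile scaling. Of the former, *Gata2*, *Irx3* and *Lhx3* were called lower with median scaling, and *Pbx3* was called with quantile normalization. For *Dlx1*, *Zic2*, *Pitx3*, *Pax5*, *Barx2* and *Tbx10* larger differences lie within the intervals.

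Members that neighbor each other on a chromosome, with no other coding gene between them, did not all move together. On chromosome 8 *Irx5* fell while *Irx3* and *Irx6* on its sides were both at 0.02, and the 769 tested genes of this chromosome had a median log2 difference of -0.67. *Pbx4*, which fell, lies on this chromosome too. On chromosome 17 *Six3* was high in WT cells while its neighbor *Six2* was above background on no array. On chromosome 2 *Dlx1* and *Dlx2*, which lie side by side, had differences of 1.51 and -0.43, of which the first was not called and the second lies at the limit of background. Pairs with a shared sign included *Dlx3* and *Dlx4* on chromosome 11, at 0.53 and 1.07 and *Zic5* and *Zic2* on chromosome 14, at 1.57 and 0.85, the latter not called. *Pax9* rose beside *Nkx2-9* and *Nkx2-1*, which were above background on no array, and *Dlx6*, *Tbx2* and *Irx2* rose beside *Dlx5*, *Tbx4* and *Irx1*, which were not either.

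**Figure D4:**
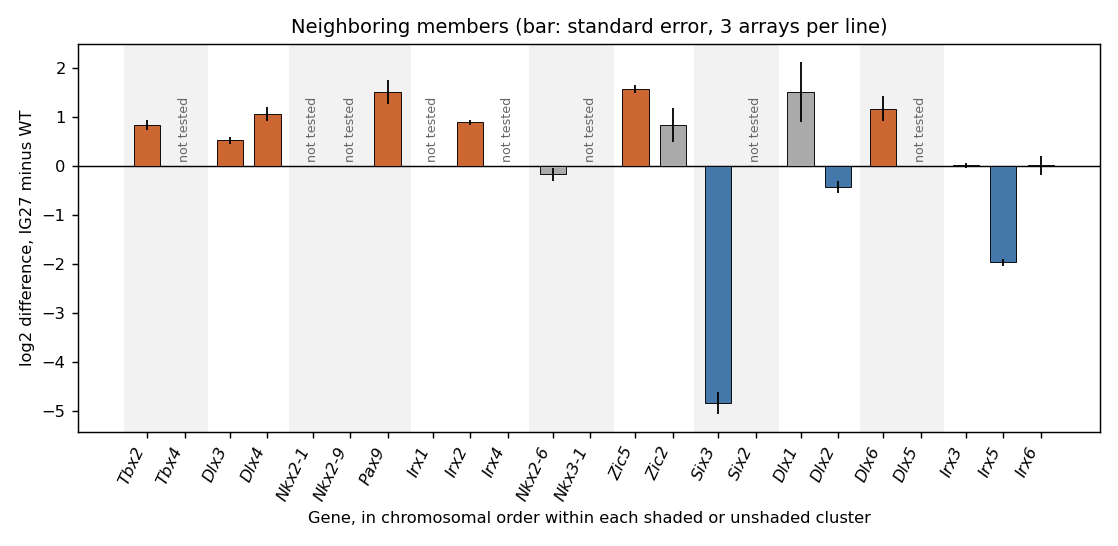
Log2 difference (IG27 minus WT) with its standard error (3 arrays per line) of members that lie next to each other, one shaded or unshaded field per cluster shown. Orange bars are called rises, blue bars called falls, gray bars were not called; *Irx5* at -1.96 stands between *Irx3* and *Irx6* at 0.02, and *Six3* and *Dlx6* stand beside genes that were not tested.

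Other genes of the same system were counted for comparison. Of 64 other homeobox and T-box genes, 34 were tested, of which 17 were called higher and 8 lower, with a median log2 difference of 0.24, beside 30.5% higher and 40.0% lower and a median of -0.07 for all genes tested. *Alx4*, of the skull and limb, was at least 36.3-fold higher in IG27 cells and above background on no WT array, and *Prrx2*, of limb and face mesenchyme, rose by 4.32 on the log2 scale (adjusted p = 4.14e-07 from limma). *Pou3f3*, a neural POU factor, was at least 10.5-fold lower and above background on no complete IG27 array, and the pluripotency factor *Nanog* fell by 1.84 on the log2 scale. Of 24 cofactors of the members' proteins, 18 were tested, 8 were higher and 5 lower, with a median of 0.11. The GATA partner *Zfpm1* fell by 1.39 and *Eya2*, a partner of sine oculis homeobox proteins, fell by 1.48. *Lmo2*, a partner of GATA and LIM domain proteins in blood cells, was at least 1.56-fold higher and above background on no WT array. *Zfpm2*, the other GATA partner of that family, had levels of -4.15, -7.64 and -7.02 in WT, where only replicate 1 was above background, and of -1.18, -1.27 and -1.26 in IG27 cells, and was called higher (adjusted p = 0.00241 from limma). Of 10 genes of H3K27 methylation, all tested, 3 were higher and 2 lower: the demethylase gene *Kdm6b* rose by 1.14 and *Ezh1* by 0.45, and *Ezh2*, the methyltransferase gene of Polycomb repressive complex 2, fell by 0.55 and its partner *Jarid2* by 0.66. The median of the 10 was 0.14, beside -0.07 of all genes tested. With median scaling the counts higher and lower were 13 and 10 for the other homeobox and T-box genes, 6 and 7 for the cofactors and 2 and 4 for H3K27 methylation, so the last pair of lists changed its balance, while the genes named here kept their signs and calls. Quantile normalization gave 16 and 8, 10 and 5, and 5 and 2. The shares of all genes called in each direction with these scalings are not given here.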

How the data were processed

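RNA of 3 WT and 3 IG27 dishes was labeled with Cy3 and hybridized to Agilent mouse arrays (design on mm9). The authors deposited the intensity of each spot as Feature Extraction gave it (version 10.7.3.1 per the file headers, 9.1 in the submitters' processing notes) and a value table of the same intensity per probe, in which WT replicates 2 and 3 are exchanged with each other. The table was used for IG27 replicate 2, after 255 of 255 single-spot probes equaled its incomplete scanner output within a relative tolerance of 1e-04. Outlier spots were left out, and log2 processed signals were scaled by taking off each array's 75th percentile. Probes were named through RefSeq accessions with a table of GRCm38.p6, used for names and neighbors. The brightest probe stood for a gene. Some genes are not reported here by name. Genes whose probe was marked well above background on all complete arrays of 1 line or both were tested with limma (version 3.58.1, R 4.3.3, two-sided, no block), at an adjusted p under 0.05. The dishes are not described further, so p-values measure the spread between these samples, which may be technical, and the number of arrays limits the precision. Steps were tested on simulated data.

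Values per array are given for members well above background in 1 line only, and, among the genes reported here, for the 6 largest rises and falls of called members measured in both lines whose groups did not overlap; other lists have at most 4 examples, the largest called differences. *Lhx1*, *Zic2*, *Dlx1* and *Pitx3* were added, and the 4 promoters chosen, after their values were seen. The members, lists and tests were chosen with earlier results of these data known. A fold of a gene below background in 1 line sets the bright line's mean against the dim line's limit, which on an array is the lowest level well above background or, where higher, the level of the probe itself. Replicate numbers did not pair the arrays (correlations of 0.01, 0.04 and 0.08 across genes). Alternatives were other scalings, background corrections, filters, probe rules, blocks and each array left out. Row 2 of the slide alone was added after the data were seen.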

Additional observations from a re-analysis of the deposited data

How the results depend on the processing

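Of the 33 called members, 27 kept the call in all 16 alternative settings with a value, and those that did not included *Barhl1*, *Dlx2*, *Gata5*, *Lhx6* and *Msx2*. The number of members called higher ran from 16 to 23 and that called lower from 13 to 19, with 17 to 19 and 13 to 15 when 1 array was left out. The shares of all genes in each direction under these settings are not given here. The median difference of the tested members, 0.07, was 0.0184 with quantile normalization, -0.17 with median scaling, 0.26 without the filter on dim probes, 0.18 averaged over the probes of a gene, and 0.047 to 0.14 without 1 array. With the limit of background replaced by the measured means, the folds of *Six3*, *Lhx4* and *Dlx2* were 28.7, 7.34 and 1.35, and with 1 array of the other line allowed 6 members were counted in 1 line only. The cause of these changes was not tested. With the replicate number as a block, 20 members were higher and 13 lower, and the call of *Dlx2* was lost (adjusted p = 0.0545 from limma). Only WT replicate 2 shares a slide row with the IG27 arrays. With the row as a block 16 were higher and 14 lower, and within that row, where the lone WT array is assumed to vary like the IG27 arrays, 17 and 14. Normexp was run on median signals of the complete arrays, with an offset of 50. Besides *Six3* and *Lhx4*, it moved the folds of *Nkx3-2*, *Zic5*, *Msx3* and *Dlx4* from 8.02, 2.97, 2.60 and 2.10 to 3.99, 1.63, 1.67 and 1.39, all still called. Levels below background limit what can be said of the 48 members that were not tested.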
